A study of Mus musculus with 2 samples.

Results

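Ccl5, Ccl17, Ccl22, Ccl24 and Cxcl16 encode chemokines, and Ccr7 encodes the chemokine receptor that leads dendritic cells to lymph nodes. These 6 genes, out of 47729 in the files, were found by their symbols and read in every barcode that showed 500 or more genes and no more than 10% mitochondrial UMIs (unique molecular identifiers, which count transcript molecules). They form a set of dendritic and type 2 chemokines with Ccr7. The rule matched symbols and used no measured value, but the members were chosen with earlier results of these data known. In both groups the cells are C57BL/6NCrljOri (H-2b) mouse femur bone marrow kept in culture for 5 days under GM-CSF, a colony-stimulating factor for granulocytes and macrophages, at 40 ng/mL. The coculture library came from CD11b-mid Ly6C-mid cells grown beside human mesenchymal stromal cells (MSC), which sat in inserts with 0.4 µm pores at 1 MSC to 5 marrow cells after 24 h of their own culture. Cells grown with no MSC were sorted as CD11b-high Ly6C-high and gave the library without coculture. Each group has 1 library, the labels do not say how many mice gave marrow, and DMEM is named for the coculture but RPMI1640 for marrow cells. The sort gate, the coculture, the medium and the library therefore cannot be told apart, and no value below has a replicate check or a test.

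CCL17 and CCL22 both bind CCR4, a receptor of type 2 helper and regulatory T cells, and are typical products of dendritic cells and alternatively activated macrophages. CCL5 binds CCR1 and CCR3, while CCL24 (eotaxin-2) binds CCR3 and draws eosinophils. CXCL16 is made as a membrane protein that ADAM10 and ADAM17 can release, and its receptor is CXCR6. CCR7 appears on dendritic cells as they mature and on naive lymphocytes, and it follows CCL19 and CCL21.

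On the GRCm38 assembly (the same build as mm10), with GENCODE M21 annotation, all 6 are protein-coding genes. Ccl22 (ENSMUSG00000031779) lies at chr8:94745590-94751699 on the plus strand, and Ccl17 (ENSMUSG00000031780) follows on the same strand at chr8:94810453-94812036, 58754 bases away. Ccl5 (ENSMUSG00000035042, chr11:83525778-83530518), Cxcl16 (ENSMUSG00000018920, chr11:70453983-70459984) and Ccr7 (ENSMUSG00000037944, chr11:99144196-99155077) lie on the minus strand of chromosome 11, and Ccl24 (ENSMUSG00000004814, chr5:135569937-135573049) on the minus strand of chromosome 5.

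The RefSeq promoter table (GRCm38.p6) held 2 of the 6 genes, the neighbours Ccl17 and Ccl22, whose bases before the start are shown because these genes were read in the same cells in 1 cell class and apart in another. Capitals mark matches to STAT-type motifs, and each sequence is from the plus strand, 5′ to 3′. The Ccl17 window is chr8:94810203-94810452 and the Ccl22 window chr8:94745434-94745589.
Ccl17: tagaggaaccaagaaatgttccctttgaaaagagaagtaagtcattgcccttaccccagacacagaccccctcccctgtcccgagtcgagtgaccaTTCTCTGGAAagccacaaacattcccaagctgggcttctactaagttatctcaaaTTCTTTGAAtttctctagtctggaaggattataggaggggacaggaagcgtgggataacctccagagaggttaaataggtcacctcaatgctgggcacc
Ccl22: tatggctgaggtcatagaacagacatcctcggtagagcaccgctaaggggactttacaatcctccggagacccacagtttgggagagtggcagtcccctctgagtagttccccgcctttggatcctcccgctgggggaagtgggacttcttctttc
On both strands, 6 motifs were searched: TTCNNNGAA (STAT), TTC and GAA with 4 bases between them (STAT6), GGG and TTTCC with 2 between (kB), TGANTCA (AP-1), GAGGAAGT (PU.1), and 2 GAAA with 2 bases between (IRF). The Ccl17 window held 1 STAT match, TTCTTTGAA, 91 bases before the start, and 1 STAT6 match, TTCTCTGGAA, 145 bases before it; the 2 matches do not overlap. Of 27025 promoter windows of 250 bases, 7.18% held the STAT letters and 5.86% the STAT6 letters. The Ccl22 window was cut at the GENCODE start of the gene and is shorter than that of Ccl17, so the 2 searches are not alike. The 156 bases shown for Ccl22 held none of the 6 motifs. Over the first 156 bases of each promoter window, 4.70% and 3.93% held the STAT and STAT6 letters. Those first bases need not lie next to a gene start. A match describes letters only and is not a bound site.

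The coculture library had 3005 kept cells and 29089241 UMIs, with a median of 6031 UMIs and 1966 genes a cell, and the library without coculture had 1817 cells and 27784963 UMIs, with medians of 7016 and 2124. Barcodes over the mitochondrial limit were 2.87% of the coculture library and 15.5% of the library without coculture, and 2 of the kept barcodes occur in both. The gate genes followed the sort labels: Itgam, which encodes CD11b, was at 144 CPM (the count scaled to a common library total) in the coculture and 351 CPM without it, and Ly6c2 was at 96.9 CPM against 344 CPM; reads of Ly6c2 may be shared with its near-identical copy Ly6c1. Cells were clustered with the 6 genes kept out of every step, and clusters were named from marker sets. Intervals below are 95% intervals for counting error only, and they understate the error of a gene whose UMIs sit in few cells.

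Of the 6 genes, 4 were at least 2-fold higher in the coculture library than without coculture, Ccl17 was at least 2-fold lower, and Cxcl16 differed by less than 2-fold. Among 8668 genes at 10 CPM or more in either library, 12.7% were higher by 2-fold or more and 11.7% were lower by 2-fold or more. The median log2 ratio was 3.52 over the 6 genes and 0.03 over all measured genes. The 6 genes were chosen with earlier results of these data known, and most of them shared a leading cell class in the coculture. They are therefore not an independent draw from the measured genes. A library sum does not separate more cells of a kind from more RNA per cell, so the values by cell class follow.

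Ccl5 had 5293 UMIs in the coculture library, or 182 CPM (177 to 187), against 124 UMIs, or 4.46 CPM (3.71 to 5.32), without coculture. That is 40.8-fold, a log2 ratio of 5.35 (5.09 to 5.62). Ccr7 had 4563 UMIs, 157 CPM (152 to 161), in the coculture library and 127 UMIs, 4.57 CPM (3.81 to 5.44), without coculture, 34.3-fold (log2 5.10, 4.85 to 5.37). Both genes were thus near 4 to 5 CPM in the library without coculture, and their intervals there overlap.

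Ccl22 was at 88.2 CPM (84.8 to 91.7) in the coculture library and 12.1 CPM (10.8 to 13.4) without coculture, a log2 ratio of 2.87 (2.71 to 3.04). Its neighbour Ccl17 had the opposite order, 38.7 CPM (36.5 to 41.0) in the coculture library against 186 CPM (181 to 191) without coculture, a log2 ratio of -2.26 (-2.36 to -2.17). The Ccl17 value rested on few cells: without the 1% of cells richest in it, the log2 ratio was -0.41, and as a mean of the cells' own CPM it was -0.48. Neither of these passes 2-fold.

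Ccl24 was the lowest of the 6 in both libraries, with 639 UMIs (22.0 CPM, 20.3 to 23.7) in the coculture library and 34 UMIs (1.22 CPM, 0.847 to 1.71) without coculture (log2 4.17, 3.67 to 4.71). Cxcl16 was at 86.5 CPM (83.1 to 89.9) in the coculture library and 76.7 CPM (73.5 to 80.1) without coculture, a log2 ratio of 0.17 (0.09 to 0.26). The Cxcl16 ratio depended on how and over which cells it was taken: a mean of the cells' own CPM gave 1.40, and leaving out the mature dendritic cell-like cells, an alternative chosen after seeing the data, gave -1.61. UMIs were read from 3′ ends and count molecules, so CPM does not scale with transcript length.

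**Figure D1:**
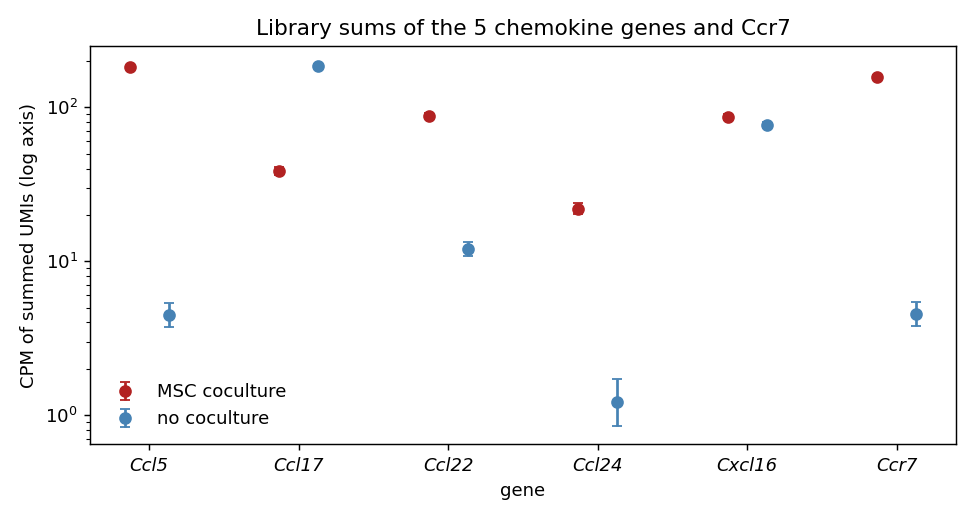
CPM of summed UMIs (log axis) of each gene in the MSC coculture library (red, left) and the library without coculture (blue, right), with exact Poisson 95% intervals over UMIs. Ccl5, Ccl22, Ccl24 and Ccr7 lie higher in the coculture, Ccl17 lies lower (38.7 against 186 CPM), and Cxcl16 is at 86.5 and 76.7 CPM.

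Shares of cells with a UMI followed the CPM for Ccr7, Ccl5 and Ccl22. With every cell thinned to 3000 UMIs (2225 cells in the coculture and 1491 without, shallower cells left out), Ccr7 had a UMI in 15.7% of coculture cells (14.2 to 17.3) and in 0.134% of cells without coculture (0.0162 to 0.484). Unthinned shares were 19.2% (576 cells) in the coculture and 0.165% (3 cells) without it. Ccl5 had a UMI in 8.49% of thinned coculture cells against 0.537% without coculture, and Ccl22 in 9.66% against 0.268%. Unthinned, these were 8.92% and 0.660% for Ccl5, and 9.58% and 0.440% for Ccl22. Ccl17 had a UMI in 6.61% of thinned coculture cells and 2.95% without coculture (7.62% and 4.79% unthinned), which goes against its CPM, so no order is read from these shares. Cxcl16 had 13.8% in the coculture and 11.9% without it when thinned, but 15.04% and 26.80% unthinned. Ccl24 was seen in 1.03% of thinned coculture cells and 0.201% of those without coculture (1.56% and 0.440% unthinned).

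UMIs of these genes were concentrated in few cells. The 31 coculture cells richest in Ccl24 held 97.5% of its coculture UMIs, and the 19 richest cells without coculture held all of theirs. For Ccl17 the same 1% of cells held 50.9% of UMIs in the coculture and 86.7% without it, with a highest cell of 47 UMIs in the coculture and of 550 without it. Cxcl16 was the most evenly spread, with 19.7% in the coculture and 15.9% without it in the richest 1%. For Ccr7 that share was 23.2% in the coculture library, while 3 cells held all Ccr7 UMIs of the library without coculture.

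In the coculture library, 4 of the 5 chemokine genes and Ccr7 came mostly from 1 cluster of 290 cells. Its leading genes were Ramp3, Fscn1, Zmynd15, Cacnb3 and Serpinb6b; Fscn1 encodes the actin-bundling protein of mature dendritic cells. All 16 markers of the mature dendritic cell set were at least 2-fold higher in it than in other cells, and it is called mature dendritic cell-like. It made up 9.65% of coculture cells and 6.76% of coculture UMIs, against 4 cells (0.220%) without coculture. It held 96.6% of coculture Ccl5 UMIs, 90.1% of Ccl17, 87.2% of Ccr7, 74.8% of Ccl22 and 73.2% of Cxcl16, but 15.6% of Ccl24. A dendritic name for the gene set thus fits Ccl5, Ccl17, Ccl22, Cxcl16 and Ccr7 in the coculture, while Ccl24 was led by other cells.

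Within these 290 cells the summed level of Ccl5 was 2601 CPM (2531 to 2674), of Ccr7 2025 CPM (1962 to 2089), of Ccl22 975 CPM (932 to 1020), of Cxcl16 937 CPM (895 to 981), of Ccl17 516 CPM (484 to 548) and of Ccl24 50.9 CPM (41.4 to 61.9). Only the intervals of the neighbours Ccl22 and Cxcl16 overlap in this order. Thinned to 3000 UMIs, 253 of the cells remained, and 92.1% of them had a Ccr7 UMI, 89.7% Cxcl16, 75.5% Ccl22, 68.0% Ccl5 and 51.4% Ccl17. Unthinned, the shares were 94.5%, 95.5%, 86.2%, 76.2% and 65.9% in the same gene order. Ccr7 and Cxcl16 were the widest in use and Ccl17 the narrowest of these 5 genes.

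Levels per cell varied more for the CC chemokine genes than for the receptor. Ccr7 ranged over the 290 cells between 0 and 54 UMIs with a median of 12 (quartiles 5 and 21), and Cxcl16 between 0 and 27 with a median of 6 (quartiles 3 and 9). Ccl5 ranged between 0 and 187 UMIs with a median of 6 (quartiles 1 and 22), and 69 cells had none. Ccl22 ranged between 0 and 74 with a median of 4, and 40 cells had none. Ccl17 ranged between 0 and 47 with a median of 1, and 99 cells had none. The 29 richest cells held 49.4% of the class's Ccl5 UMIs and 53.1% of its Ccl17 UMIs, against 25.2% for Ccr7 and 24.5% for Cxcl16.

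**Figure D2:**
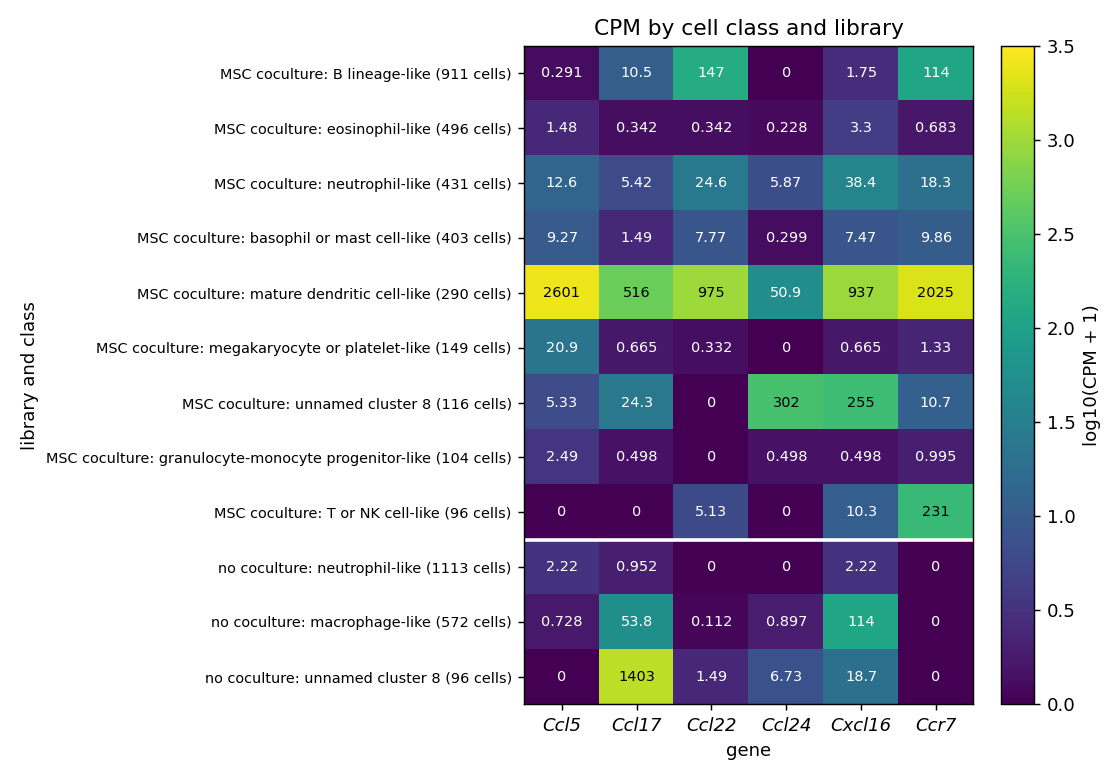
CPM of each gene summed over the cells of a class within a library (numbers, with colour on a log10 scale), for classes of at least 50 cells, with the coculture library above the white line and the library without coculture under it. The mature dendritic cell-like row is the highest in the coculture for every gene but Ccl24, which peaks in cluster 8 (302 CPM), and Ccl17 reaches 1403 CPM in cluster 8 without coculture.

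The 4 mature dendritic cell-like cells without coculture all carried Ccl22, Cxcl16 and Ccl5, while Ccr7 and Ccl17 were not seen in every cell. The cells held 19214, 46650, 21888 and 19706 UMIs. In that order of cells, Ccr7 had 34, 0, 70 and 23 UMIs, all 127 of that library. Ccl22 had 32, 162, 92 and 43 UMIs, 98.2% of that library's total. These few cells therefore set the Ccr7 and Ccl22 levels without coculture. Ccl5 had 3, 1, 45 and 47 UMIs (77.4% of the total), and Ccl17 had 81, 264, 0 and 100 (8.61%). Cxcl16 had 7, 20, 4 and 9 (1.88%), and Ccl24 was at 0 in all 4. Summed over the 4 cells, Ccl22 was at 3062 CPM and Ccl17 at 4141 CPM, above the 975 and 516 CPM of the coculture class. Ccl5 (893 CPM), Ccr7 (1182 CPM) and Cxcl16 (372 CPM) were below the 2601, 2025 and 937 CPM of that class. With 4 cells, no order between the libraries is read from these class levels. Of the markers that name the class, Fscn1 had 10, 1, 31 and 5 UMIs and Cd83 had 10, 15, 12 and 4, so the cell with 46650 UMIs had 0 Ccr7 and 1 Fscn1 beside its 264 Ccl17. Without the mature dendritic cell-like cells of either library, an alternative chosen after seeing the data, the log2 ratio of Ccl5 was 2.70 and of Ccl17 -5.37, that of Ccl22 was 6.78, and Ccr7, then at 0 UMIs without coculture, was at least 7.63 higher against a floor of 3 UMIs per library.

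Single cells of this class used several of the genes at once. Of its 253 thinned cells, 70 had a UMI of 5 of the 6 genes, 95 of 4, 58 of 3, 25 of 2, 4 of 1 and 1 of none; no cell had all 6. At least 3 genes were thus seen in 88.1% of them, against 1.09% of 92 cells of cluster 8, 0.813% of 369 neutrophil-like cells and 0.489% of 409 B lineage-like cells of the same library. Without coculture, 0 of 562 macrophage-like, 0 of 811 neutrophil-like and 0 of 82 cluster 8 cells had 3 or more, which allows shares of up to 0.534%, 0.370% and 3.66% by the limit of 3 cells, with Clopper-Pearson bounds of 0.654%, 0.454% and 4.40%. Clusters were made without the 6 genes, but genes used to make them vary with these genes, so the counts are a description.

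**Figure D3:**
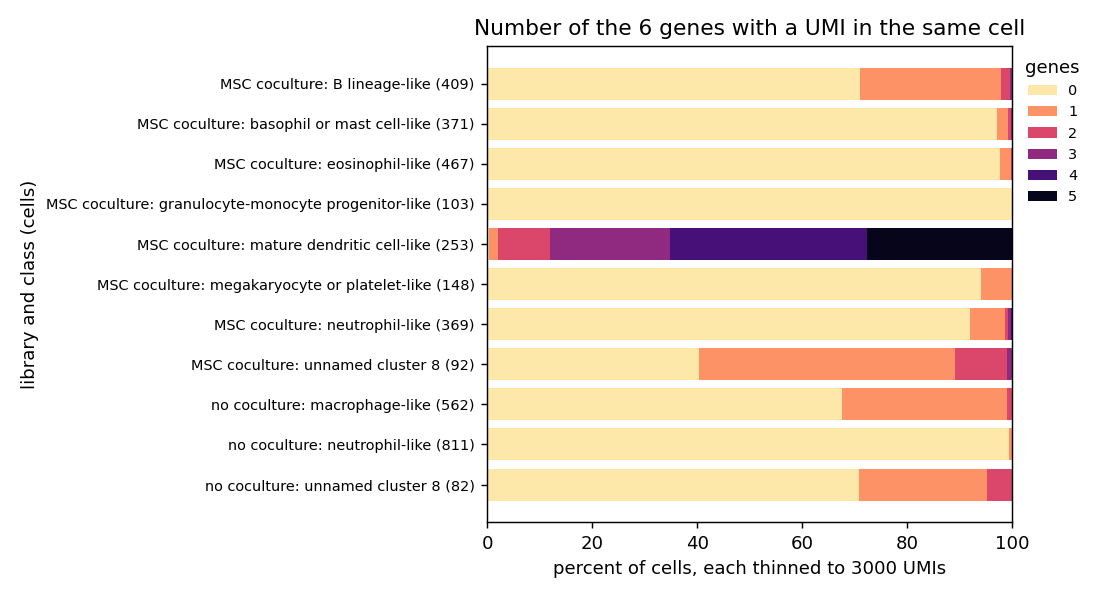
Percent of cells, each thinned to 3000 UMIs, in which 0 to 5 of the 6 genes had a UMI (colours), by class, with coculture classes above those without coculture and the cell number in brackets. In the mature dendritic cell-like class, 88.1% of cells had 3 or more, while in most other classes most cells had none.

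Among thinned mature dendritic cell-like cells, Ccl22 was seen in 83.1% (75.5 to 89.1) of the 130 cells with Ccl17 and in 67.5% of the 123 without it. For Ccl5 and Ccl17 the shares were close: 51.2% of the 172 cells with Ccl5 had Ccl17, against 51.9% of the 81 without Ccl5. Ccl22 was seen in 79.1% of Ccl5 cells and in 67.9% of the others. A cell counted as without a gene may still express it below 1 UMI in 3000, and the size of each cell's RNA pool is shared by all genes.

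B lineage-like cells were the other source of Ccl22 and Ccr7 in the coculture. This class of 911 coculture cells, named from Cd79a, Pax5 and other B cell markers, held 19.8% of Ccl22 UMIs at 147 CPM (135 to 161), though Ccl22 was seen in 24 of its cells. A cluster of 42 of these cells, led by Shisa8 and Tnfrsf13c, held 431 of the 507 UMIs in 13 cells, at 798 CPM. The 9 B lineage-like cells with 10 or more Ccl22 UMIs had between 14 and 179 each (median 31, 470 in all). All 9 had Cd79a, a B cell receptor component, at 5 to 67 UMIs (median 20), and all 9 had Cd83 at 3 to 16. They had 0 UMIs of Ccl5, Cxcl16, Ramp3 and Zmynd15, 7 of Fscn1 in 2 cells, 16 of Ccl17 in 2 cells and 17 of Ccr7 in 7 cells. Ccl5, Cxcl16, Ramp3 and Zmynd15 were thus at 0 in these Ccl22-rich cells, while Ccr7 and Cd83 were present in most or all of them. The whole cluster of 42 cells also had 0 UMIs of Ccl5, Cxcl16, Ramp3 and Zmynd15, with Cd83 in 35 cells and Ccr7 in 19. The counts of 0 and the presence of Cd83 are therefore not particular to the Ccl22-rich cells.

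Ccr7 was read in 25.1% of B lineage-like cells (229 of 911; 22.3 to 28.1) at 114 CPM (103 to 126), and in 36.5% of T or NK cell-like cells (35 of 96; 26.9 to 46.9) at 231 CPM (168 to 309). Median depths were 2872 and 1897 UMIs a cell in these classes. In eosinophil-like cells, which should lack it, the share was 1.01% (5 of 496) at 0.683 CPM with a median of 18051 UMIs. Other coculture classes had more: 8.62% in cluster 8 (10.7 CPM), 2.68% in megakaryocyte or platelet-like, 2.48% in basophil or mast cell-like (9.86 CPM) and 1.62% in neutrophil-like cells (18.3 CPM). The lymphocyte shares were above all of these at a lower median depth. Thinned, the B lineage-like share was 25.2% against 0.214% in eosinophil-like cells, and 4 T or NK cell-like cells were deep enough to thin. In the library without coculture, Ccr7 was seen in 0 of 572 macrophage-like cells and 0 of 1113 neutrophil-like cells, which allows shares of up to 0.524% and 0.270% of those cells to have a UMI (3 cells over the cells counted; the Clopper-Pearson bounds are 0.643% and 0.331%) at median depths of 25043.5 and 4349 UMIs.

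**Figure D4:**
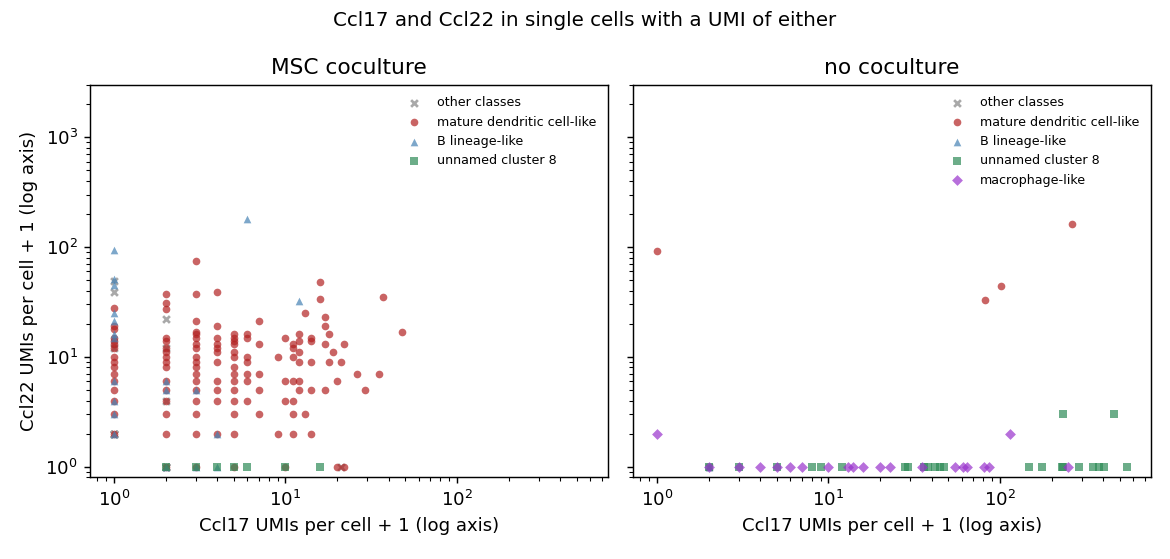
Ccl17 UMIs (x axis) and Ccl22 UMIs (y axis) per cell, each plus 1 on log axes, for unthinned cells with a UMI of either gene, in the coculture library (left) and the library without coculture (right). In the coculture, mature dendritic cell-like cells (176 of 290 with both) spread over both axes, while of the B lineage-like cells 17 have Ccl22 alone, 7 Ccl17 alone and 7 both; without coculture, cluster 8 cells lie along the Ccl17 axis, with 29 cells with Ccl17 and no Ccl22 and 2 with both.

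Ccl17 came from different cells without coculture. Cluster 8 (96 cells) held 3755 of its 5167 UMIs there (72.7%), at 1403 CPM (1359 to 1449) in 31 cells. Macrophage-like cells (572) held 960 UMIs (18.6%) at 53.8 CPM in 46 cells. The 20 cluster 8 cells with 10 or more Ccl17 UMIs had between 11 and 550 (median 160), together 3725. All 20 carried Mgl2, which encodes a lectin of dendritic cells and macrophages, at 5 to 202 UMIs (median 64.5). The same cells had 4 UMIs of Ccl22 and 0 of Ccl5, Ccr7 and Fscn1. Unlike the mature dendritic cell-like cells, of which 176 of 290 in the coculture had both CCR4 ligand genes, these cells had Ccl17 with next to no Ccl22. Over all 96 cluster 8 cells without coculture, Mgl2 was seen in 81, Ccl22 in 2, and Ccl5 and Ccr7 in 0. These traits are therefore not particular to the 20 Ccl17-rich cells.

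Cluster 8 was left unnamed because its 10 leading genes held 2 markers of the dendritic cell set and 2 of the B lineage set, Igha and Jchain. For Igha, 1 coculture barcode held 3564 of the cluster's 3568 UMIs. Its other leading genes included Asgr2, Ptx3, C1qa, Plet1 and Mgl2. Mgl2 was at 1238 CPM in its coculture cells and 1667 CPM in those without coculture, while C1qa, a complement gene of macrophages, was at 1469 CPM against 50.1 CPM. The cluster's cells thus differ between the libraries in more than the 6 genes, and their median depth was 13727.5 UMIs in the coculture and 26375 without it.

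Within this cluster, 3 chemokine genes differed between the libraries by over 2-fold on 50 or more summed UMIs. Ccl17 was at 24.3 CPM (17.4 to 33.0; 8 of 116 cells) in the coculture against 1403 CPM (31 of 96 cells) without it, a log2 ratio of -5.85 (-6.33 to -5.41). Ccl24 was at 302 CPM (276 to 329; 26 cells) in the coculture against 6.73 CPM (3.99 to 10.6; 3 cells) without it, a log2 ratio of 5.49 (4.81 to 6.25). Cxcl16 was at 255 CPM (231 to 280; 75 cells) in the coculture against 18.7 CPM (13.9 to 24.6; 29 cells) without it, a log2 ratio of 3.77 (3.34 to 4.22). Ccr7 had 18 UMIs in the coculture cells and 0 without coculture, Ccl5 had 9 and 0, and Ccl22 had 0 and 4.

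**Figure D5:**
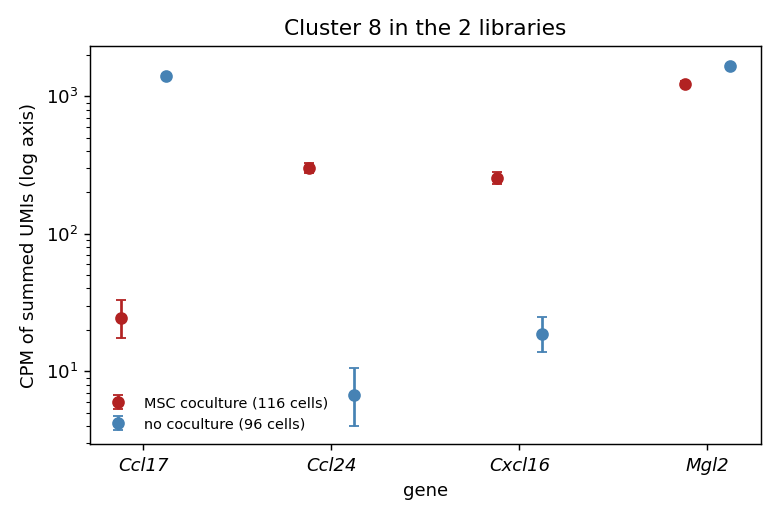
CPM of summed UMIs (log axis) of Ccl17, Ccl24, Cxcl16 and Mgl2 in cluster 8, in the coculture library (red, left; 116 cells) and the library without coculture (blue, right; 96 cells), with exact Poisson 95% intervals over UMIs. Ccl17 is at 24.3 against 1403 CPM and Ccl24 at 302 against 6.73 CPM, while Mgl2 is at 1238 and 1667 CPM.

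At a finer clustering resolution (1.2) this cluster came apart. A macrophage-like cluster held 111 coculture cells and 15 cells without coculture, the latter under the minimum of 50 cells used for sums. In it, Ccl17 was at 27.9 CPM in the coculture against 5333 CPM without it (log2 -7.58), and Ccl24 had 515 UMIs in the coculture cells against 0. Cxcl16 there was at 222 CPM in the coculture and 55.3 CPM without it (log2 2.00). Its cells also differed in C1qa (1214 CPM in the coculture, 279 CPM without it) and Plet1 (378 and 2033 CPM). With 15 cells that differ in this way, no order between the libraries is read from this cluster. The other piece, 22 coculture cells and 78 without coculture, had 0 Ccl17 UMIs in the coculture and 1441 without it. Its cells were not alike in depth, with medians of 1740 UMIs in the coculture and 26223.5 without it. Mgl2 had 2 UMIs in its coculture cells and 3559 in those without coculture. No order of Ccl17 between the libraries is read from this piece. The Ccl17 cells without coculture were thus divided over more than 1 cluster.

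Ccl24 was carried by very few cells. Cluster 8 held 509 of its 639 coculture UMIs (79.7%), and 10 of the cluster's cells with 10 or more UMIs held 465 (between 13 and 157, median 29). Of these 10, 9 had C1qa (median 67.5 UMIs), all had Mgl2 at 23 to 109 UMIs, and none had a Ccl17 UMI. Over all 116 coculture cells of the cluster, C1qa was seen in 66, Mgl2 in 80 and Ccl17 in 8. The 20 Ccl17-rich cells of this cluster without coculture, which also carried Mgl2, had 1 Ccl24 UMI in all. Over all 96 cells of the cluster without coculture, Ccl24 was seen in 3. The other gene was thus rare over each library's part of the cluster, so no exclusion between Ccl17 and Ccl24 is read. In the mature dendritic cell-like class, 7 cells held 100 Ccl24 UMIs, of which 1 cell had 56, and these had 0 C1qa UMIs.

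Cxcl16 changed cell class between the libraries. Without coculture, macrophage-like cells held 95.1% of its UMIs at 114 CPM (109 to 119), with a UMI in 77.1% of the 572 cells, or 29.9% when thinned. No coculture cell fell in that class, and the leading class in the coculture was the mature dendritic cell-like one at 937 CPM. In neutrophil-like cells, which both libraries held, Cxcl16 was at 38.4 CPM (32.8 to 44.6; 431 cells) in the coculture and 2.22 CPM (1.21 to 3.73; 1113 cells) without it. Different clusters held most neutrophil-like cells in the libraries: cluster 2, led by Arg1 and Cxcl3, held 407 of the 431 in the coculture, and clusters 15 and 17, led by Asprv1 and Slfn1, held 721 and 277 of the 1113 without it.

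The receptors of these ligands were read in other cell classes. Of 13 receptor, ligand and protease genes on the list, 5 were measured, with 1 higher and 1 lower by 2-fold or more, and a median log2 ratio of -0.21. Ccr3, the eotaxin receptor gene, was at 13.9 CPM in the coculture and 0.180 CPM without it (log2 6.27), and 338 of its 403 coculture UMIs (83.9%) were in eosinophil-like cells. That class numbered 496 cells in the coculture and 0 without it. Ccr1 was at 158 and 306 CPM (log2 -0.95), and was highest in neutrophil-like cells of both libraries at 450 CPM in the coculture and 515 CPM without it. Mature dendritic cell-like cells had Ccr1 at 119 CPM.

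Ccr4, the CCL17 and CCL22 receptor gene, had 10 UMIs in the coculture library and 2 without coculture, so it was close to the floor of 3 UMIs in both. Cxcr6 had 62 UMIs in the coculture and 1 without it, and T or NK cell-like cells held 51 of the 62, at 262 CPM. The CCR7 ligand gene Ccl19 had 0 UMIs in the coculture and 1 without it, and Ccl21a, Ccl21b and Ccl21c, which are near-identical copies, had 0 in both. Adam10 was at 51.4 CPM in the coculture and 52.4 CPM without it, and Adam17 at 56.6 and 65.3 CPM. The CXCL16 proteases thus differed little between the library sums, with log2 ratios of -0.03 and -0.21.

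Genes of dendritic cell maturation mostly lay higher in the coculture library; this and the other list counts stand beside 12.7% higher, 11.7% lower and a median log2 ratio of 0.03 over all measured genes, and no list was tested against them. Of 35 on the list, 24 were measured, 16 were 2-fold or more higher, 1 was lower by that much and 7 were between; their median log2 ratio was 1.69. Il4i1, an amino acid oxidase gene, was at 166 CPM in the coculture and 4.50 CPM without it (log2 5.20), Cd83 at 116 and 3.46 CPM (5.07) and Fscn1 at 51.4 and 1.73 CPM (4.90). Mature dendritic cell-like cells held 95.2% of the coculture Fscn1 UMIs and 49.4% of Il4i1, but B lineage-like cells held 75.7% of Cd83. Icosl was the gene at least 2-fold lower (8.01 against 16.1 CPM, log2 -1.01). The list sum was 9659 CPM in the mature dendritic cell-like class against 542 to 2760 CPM in the other classes of at least 50 cells. The list shares genes with the marker set that named the class, so this high sum is no separate evidence.

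All 19 NF-kB pathway genes were measured, with 5 at least 2-fold higher, 0 lower and a median log2 ratio of 0.52. Traf1, a signalling adaptor gene, was at 72.0 CPM in the coculture and 10.4 CPM without it (log2 2.79), and Relb at 43.7 and 15.3 CPM (1.51); mature dendritic cell-like cells held 74.1% and 59.1% of their coculture UMIs. Rela was the lowest, at 39.6 CPM in the coculture and 59.7 CPM without it (log2 -0.59).

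Type 2 and alternative activation genes were split: of 20 measured, 5 were at least 2-fold higher, 9 lower and 6 between (median log2 ratio -0.81). The highest ratio was that of Il4, a type 2 cytokine gene, with 575 UMIs in the coculture against 1 without it, and 66.6% of the 575 were in the basophil or mast cell-like class. Arg1, which encodes arginase, was at 688 CPM in the coculture and 27.5 CPM without it, with 88.8% of coculture UMIs in neutrophil-like cells. Mrc1, a mannose receptor gene, was at 1.34 CPM in the coculture and 100.2 CPM without it, where macrophage-like cells held 98.6%. Of 21 GM-CSF and IL-4 signalling genes, all measured, 1 was at least 2-fold higher and 3 lower, with a median of -0.07; Csf2ra, a GM-CSF receptor chain gene, was at 76.4 CPM in the coculture and 260 CPM without it.

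The other chemokine genes did not share 1 direction. Of 31 others, 11 were measured, 4 higher and 5 lower by 2-fold or more, with a median log2 ratio of -0.41. Ppbp (log2 8.97) and Pf4 (4.75), platelet chemokine genes, were read in the coculture above all in the megakaryocyte or platelet-like class (42.9% and 79.2% of UMIs), and the neutrophil attractant gene Cxcl3 (4.23) had 87.3% of its in neutrophil-like cells. Ccl7 (-6.44) and Ccl2 (-4.66), monocyte attractant genes, had most of their UMIs without coculture in macrophage-like cells (70.2% and 76.4%). Ccl4 (-2.94) was at 76.2 CPM in the coculture and 583 CPM without it, where cluster 8 held 55.2% of its UMIs. For Ccl17 that share was 72.7%. Of 16 other chemokine receptor genes, 6 were measured, 1 higher, 2 lower, with a median of -0.44 with Ackr1 at its bound.

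Likeness of pattern was measured as Pearson's r of log2(CPM + 1) over 17 sums of at least 50 cells, each of 1 cluster in 1 library; the sums share libraries and differ in depth, so r is a description. Among all measured genes, Ccl22 was most like Fscn1 (r = 0.89), and Ramp3 (0.84) and Ccr7 (0.83) were also in its first 5. Ccr7 was most like Cblb (0.95), B3gnt5 (0.93) and Stat4 (0.92). Ccl5 was most like Ceacam15 (0.93) and Aoc1 (0.88). Ccl17 was most like Dcstamp and Cd36 (both 0.86), and its r with its neighbour Ccl22 was 0.44. Ccl24 was most like Aif1 (0.88), and Cxcl16 was most like Sdc3 (0.93). The Cxcl16 and Ccl24 patterns were close to each other (0.82), while Ccl17 and Ccr7 were the least alike of the 6 genes (0.18).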

How the data were processed

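Single-cell RNA was measured in 2 libraries, 1 per group. The authors deposited raw UMI counts per gene and barcode (47729 genes; software version 3.1.0 per the file headers), not normalized. Cell Ranger, bcl2fastq and the build mm10 are named in the submitters' processing notes; the annotation release is not given in the sources used here. The kit reads 3′ ends (v2 chemistry), per the labels' protocols.

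Counts were summed over kept barcodes of a library, class or cluster and scaled to CPM. CPM carries exact Poisson intervals, ratios exact conditional binomial intervals and shares Clopper-Pearson intervals, all at 95% and for counting error only. For a share of 0 the limit given is 3 cells over the cells counted, with the Clopper-Pearson bound beside it. A gene at 0 took a floor of 3 UMIs (0.103 CPM in the coculture, 0.108 CPM without it). With 1 library per group no test was run. The ratio code was tested on simulated data. Shares were taken after thinning each cell to 3000 UMIs, which left out 780 coculture cells and 326 without coculture.

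Cells of both libraries were clustered together in scanpy 1.11.5 (10000 counts per cell, 2000 variable genes, 30 components, 15 neighbours, Leiden resolution 0.8) without the 6 genes. Clusters were named from 15 marker sets. Sets were scored by the mean log2 fold of their markers (20 CPM or more, pseudocount 5 CPM). The best set named the cluster if 3 or more markers and 25% of the set were 2-fold higher. In addition, no other set could have as many markers among the 10 leading genes, except in a tie at 1 marker or none. That scoring was chosen with the data in view. Doublets were not removed.

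The members and the 7 gene lists (163 genes) were chosen with earlier results of these data known. Genes were counted as measured at 10 CPM or more in either library. Genes named are the 6 members, their receptors and ligands, up to 3 at each end of a list, the 5 most alike per member, and markers or leading genes of clusters; those carried by single cells were read after the cells had been seen. Alternatives were all deposited barcodes, stricter limits (1000 genes, 5% mitochondrial), leaving out the 5% deepest barcodes or the 1% of cells richest in a gene, TMM factors (edgeR), the mean of the cells' own CPM, other minimum levels, other clusterings and thinning to 1500 UMIs. Protein sequences and human MSC transcripts were not analysed here, and a few genes of the lists and markers are not reported here.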

Additional observations from a re-analysis of the deposited data

How the results depend on the processing

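No ratio past 2-fold changed sign under the alternatives run. As a mean of the cells' own CPM the log2 ratios were 6.64 for Ccl5, -0.48 for Ccl17, 4.16 for Ccl22, 4.97 for Ccl24, 1.40 for Cxcl16 and 6.20 for Ccr7. Without the 1% of cells richest in each gene they were -0.41 for Ccl17 and 0.071 for Cxcl16, and, against a floor of 3 UMIs in the library without coculture, at least 9.73 for Ccl5, 8.82 for Ccl22, 2.35 for Ccl24 and 10.12 for Ccr7. Without the mature dendritic cell-like cells, chosen after seeing the data, they were 2.70 for Ccl5, -5.37 for Ccl17, 6.78 for Ccl22, -1.61 for Cxcl16 and at least 7.63 for Ccr7. Cxcl16, within 2-fold over all cells, was thus lower in the coculture by over 2-fold in that setting. Without the 5% deepest barcodes they were -1.93 for Ccl17, 2.68 for Ccl22 and 0.47 for Cxcl16, and with TMM factors -2.41 for Ccl17 and 0.030 for Cxcl16. TMM factors moved the median of all measured genes to -0.13 and the shares at least 2-fold higher and lower to 10.5% and 14.6%. Measured genes at least 2-fold higher and lower numbered 403 and 513 at 50 CPM, and 3824 and 1898 at 10 UMIs over both libraries; fewer or more genes enter by construction. The 6 genes gave 4 higher and 1 lower in these settings, except at 50 CPM, where Ccl24 was not measured and 3 were higher. Leading class shares without the 5% deepest barcodes were 97.3% for Ccl5, 80.8% for Ccl22, 79.5% for Cxcl16 and 88.2% for Ccr7 in the coculture, and 84.3% for Ccl17, 85.7% for Ccl24 and 93.7% for Cxcl16 without it. At resolution 1.2 the unnamed cluster with most cells of cluster 8 held 27.9% of Ccl17 without coculture, macrophage-like clusters then led with 63.4%, and they held 96.4% of Cxcl16; with all chemokine genes kept out of the clustering the Ccl17 share was 74.9%; at resolution 0.4, where neutrophil-like clusters took all 116 coculture cells of cluster 8 and 78 of its 96 cells without coculture (18 went to a macrophage-like cluster), they held 83.7% of coculture Ccl24. Where no value shows it, the cause was not tested. No paired analysis was possible because each group has 1 library and the labels carry no replicate numbers. The depth per cell limits statements on absence: T or NK cell-like and B lineage-like cells had medians of 1897 and 2872 UMIs, and shares moved with thinning.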

Other observations

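Megakaryocyte or platelet-like cells of the coculture carried some Ccl5, 63 UMIs in 17 of 149 cells (20.9 CPM, 16.1 to 26.8), of which 1 cell had 26. Those 17 cells had 0 UMIs of Ccr7 and Ccl22, and 3 of them had a UMI of Gp1bb, the platelet glycoprotein gene that leads the class. Ackr1, which encodes an atypical receptor that binds chemokines without signalling through G proteins, had 859 of its 869 coculture UMIs (98.8%) in the same class, at 286 CPM, and 0 UMIs without coculture.

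A few coculture barcodes in granulocyte classes carried the mature dendritic cell-like genes. The 5 neutrophil-like or basophil or mast cell-like barcodes with 9 or more Ccr7 UMIs held 95 UMIs of Ccr7, 83 of Ccl5, 81 of Ccl22, 33 of Ramp3 and 22 of Fscn1, beside 501 of Arg1 in 4 barcodes and 392 of the basophil protease gene Mcpt8 in 2. Doublets were not removed, and their part in the values of those classes was not tested.

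The barcodes left out by the gene and mitochondrial limits also held Ccr7 in the coculture: 69 UMIs (539 CPM) in 21 of 129 barcodes, against 0 in 363 barcodes without coculture. Cxcl16 had 34 UMIs in 20 of those coculture barcodes and 8 UMIs in 8 of those without coculture.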
